A study of Mus musculus with 28 samples.

Results

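Steady-state nascent transcription was described in wild-type (WT) mouse embryonic stem cells (mESC) from 2 Bru-seq libraries, out of the 28 libraries of the series. A gene was counted as transcribed when the mean of its 2 RPKM values (reads per kilobase of length, scaled to the size of the library) was over 0.5, the study's limit for expressed genes, and 10796 of the 24984 listed genes (43.2%) met it. The cells were of the CCE28 line with intact Elongin A and were labelled with 2 mM 5-bromouridine (BrU) for 10 min, without flavopiridol. They had been kept on mouse embryonic fibroblast feeders with 15% fetal bovine serum, leukemia inhibitory factor (LIF) and the 2i pair of inhibitors, 1 µM PD0325901 against MEK and 3 µM CHIR99021 against GSK3. Before labelling the feeders were removed by their faster attachment and the mESC were plated on gelatin. The treatment text of the same samples names another mESC line, CJ7, and the difference was not resolved here. The study describes its steady-state Bru-seq as independent duplicate experiments, while the labels name no cultures, and with 1 group no test between groups was possible.

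Bru-seq reads the RNA that polymerases make during the pulse. BrU is built into growing transcripts, an antibody pulls the labelled RNA down, and most of what is sequenced is unspliced, so a level follows current synthesis rather than the store of stable mRNA. mESC represent the pluripotent cells of the early embryo, in which a circuit of factors around Oct4 (gene Pou5f1), Sox2 and Nanog acts while genes of the later tissues stay mostly silent, and culture with both inhibitors holds them in the naive state that precedes implantation.

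The transcribed genes were led by the naive pluripotency marker Zfp42 (Rex1) among protein-coding genes, followed by genes for ribosomal proteins, translation factors and RNA-binding proteins, whereas markers of neurons, endoderm, blood, muscle and liver stayed under the limit with few exceptions. The median level of 32 pluripotency genes was 8.05 RPKM and that of 54 lineage genes 0.0578 RPKM, a difference of 5.69 on the scale of log2(RPKM + 0.1). Most transcribed genes sat low, since 2396 (22.2%) had 0.5 to 1 RPKM, 3233 (29.9%) 1 to 2 RPKM and 3606 (33.4%) 2 to 5 RPKM. Levels over 50 RPKM were reached by 41 genes (0.380%), and the median of the transcribed genes was 1.91 RPKM.

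The library sizes behind the RPKM were 23896847 reads (replicate 1) and 27923484 reads (replicate 2), as worked out from the steps between low RPKM values. Reads in matched genes came to 98.9% of this size in both libraries, so it is near the total assigned to genes. Of the genes with introns, 96.3% in both libraries came out as whole reads, within 0.02 of a whole number, when the length used was that of the introns with 1 exon base at each side, against 3.81% and 3.69% with the whole span. For a gene with introns the level is therefore scaled per kilobase of intron, and for a gene without introns per kilobase of exon. The whole numbers show the length used and not where the reads were counted. The study's methods describe counting over whole genes, so whether reads over exons are included cannot be told here. A transcribed gene rested on a median of 832 reads, and 734 transcribed genes rested on fewer than 20. Replicate 1 had 10883 genes over the limit and replicate 2 had 10670, and 10447 genes (96.8% of the transcribed genes) were over it in both. The 5 genes just over the limit were Cldn15, Uvssa, Smim3, Psmb10 and Map4k2, at means of 0.5001 to 0.5005 RPKM, and genes just under it were Ttc39c, Susd2, Atp8a1 and Fhod3, at 0.4999 to 0.4991 RPKM.

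Of the core pluripotency genes, 12 of 14 were transcribed. Nanog, which encodes a homeodomain factor of the pluripotency circuit, had 22.6 RPKM in replicate 1 and 18.5 in replicate 2. Sox2, its high mobility group partner, had 11.5 and 13.2 RPKM. Pou5f1, which encodes Oct4, had 7.36 and 8.48 RPKM. The 3 genes of the central circuit thus lay in separate ranges, Nanog highest in both libraries and Pou5f1 lowest, and the 2 libraries of each gene were closer to one another than to those of the next gene. Sox2 has no introns, so its level is per kilobase of exon, while those of Nanog and Pou5f1 are per kilobase of intron. Rif1, a telomere and replication timing factor that is abundant in mESC, was the highest of the list at 23.9 and 25.0 RPKM. Tdgf1 (Cripto), a co-receptor of Nodal, had 9.55 and 11.2 RPKM, and Trim71, an RNA-binding repressor of differentiation, 9.61 and 9.46 RPKM. These genes had levels between the quartiles of the pluripotency lists (3.80 and 13.1 RPKM) or above them. The genes of the let-7 inhibitors Lin28a and Lin28b did not reach the limit, with 0.348 and 0.358 RPKM for Lin28a and 0.429 and 0.503 RPKM for Lin28b. Sox2 lies within the long noncoding transcript Sox2ot on the same strand, whose level was 1.65 RPKM.

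Of the naive pluripotency genes, 16 of 18 were transcribed, with a median of 11.3 RPKM (10.4 and 11.5 in the 2 libraries). Zfp42, a zinc finger gene used as a marker of the undifferentiated state, had 85.7 and 82.4 RPKM (84.0 ± 2.35, SD, n = 2) and rested on 20786 and 23345 reads. Jam2, which encodes a junctional adhesion molecule, had 31.9 and 30.2 RPKM, and Tbx3, a T-box factor of the LIF response, 25.8 and 23.2 RPKM. Zfp42 was at more than the sum of these neighbours in the list, and the order of Zfp42, Jam2 and Tbx3 was the same in both libraries. Among the Krüppel-like factors of the naive circuit, Klf5 had 19.5 and 18.4 RPKM, Klf2 10.1 and 13.2 RPKM, and Klf4 10.6 and 11.9 RPKM. Klf2 and Klf4 changed places between the libraries, so that their order was not resolved. Tfcp2l1, a target of the LIF pathway, had 18.9 and 16.6 RPKM, and Esrrb, an orphan nuclear receptor of the same circuit, 8.60 and 7.79 RPKM. The genes of the list under the limit were Dppa3 (Stella), with 0.138 and 0.106 RPKM, and Tcl1, with 0.537 and 0.459 RPKM, a mean just below 0.5.

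Genes that mark the step from naive to formative and primed pluripotency were transcribed in 4 of 11 cases (36.4%), beside 45.8% of all listed protein-coding genes. Zic2, a zinc finger factor, was the highest with 3.74 and 4.32 RPKM, followed by the DNA methyltransferase gene Dnmt3b with 1.76 and 1.82 RPKM. Otx2, a homeodomain factor of the transition, had 1.52 and 1.26 RPKM. These 3 genes kept their order in both libraries. Fgf5, the usual marker of the primed epiblast, had 0.0246 and 0.0193 RPKM, and Pou3f1 (Oct6) rested on 2 and 3 reads. The median of the list was 0.404 RPKM, between those of the naive list and of the lineage lists.

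Lineage genes were mostly near 0. Of the neural progenitor genes 2 of 14 were over the limit, namely the tubulin gene Tubb3 (0.690 and 0.550 RPKM) and the intermediate filament gene Nes (0.594 and 0.531 RPKM), while Neurog1, Neurog2, Olig2 and Hes5 had no read in either library. The counted lengths of Neurog2, Olig2 and Hes5 were short, at 272, 693 and 236 bases. Of 8 neuronal genes only Grin1, a glutamate receptor subunit, passed, with 1.05 and 0.907 RPKM. Of the mesoderm genes 2 of 14 passed. They were the T-box gene Tbx6, with 1.33 and 1.39 RPKM, and the organizer gene Gsc, with 0.780 and 1.21 RPKM, whereas T (Brachyury) had 0 and 2 reads. None of the 13 endoderm genes passed, and the highest of them was Gata6 with 0.264 and 0.252 RPKM. The trophectoderm list was an exception in part, since Tead4 (2.09 and 1.93 RPKM), Gata3 (1.78 and 1.69 RPKM) and Tfap2c (0.917 and 1.06 RPKM) were over the limit while Cdx2, the defining factor of that lineage, had 4 reads in each library. In all, 7 of the 54 lineage genes and 28 of the 32 pluripotency genes were transcribed, and 1 lineage gene (Tead4) and 27 pluripotency genes had over 2 RPKM. In bulk libraries, few cells with much RNA of a gene and many cells with little cannot be told apart. The difference of the medians was 5.65 in each library taken alone, on the same log2 scale.

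Germ cell genes were transcribed in 2 of 10 cases, Dazl (2.79 and 3.04 RPKM) and Nanos3 (2.03 and 1.62 RPKM), both RNA-binding proteins of the germ line. None of 10 measured genes of the 2-cell-like state passed, and the highest was Zscan4d with 18 and 10 reads. Feeder fibroblasts, which had been in the cultures before depletion, were checked with 18 markers. Of these 2 passed, the collagen gene Col5a1 (0.603 and 0.596 RPKM) and the actin-binding protein gene Tagln (0.586 and 0.539 RPKM), and the summed level of the list was 3.37 and 3.78 RPKM. The main fibroblast collagens Col1a1 (0.419 and 0.577 RPKM) and Col1a2 (0.431 and 0.542 RPKM) were close to the limit, over it in replicate 2 and under it in replicate 1, and Lum, Dcn and Fap had means under 0.01 RPKM. The share of feeder RNA in the lineage values was not tested. No gene of the blood, muscle and liver lists (11, 8 and 6 genes) was over the limit.

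**Figure D1:**
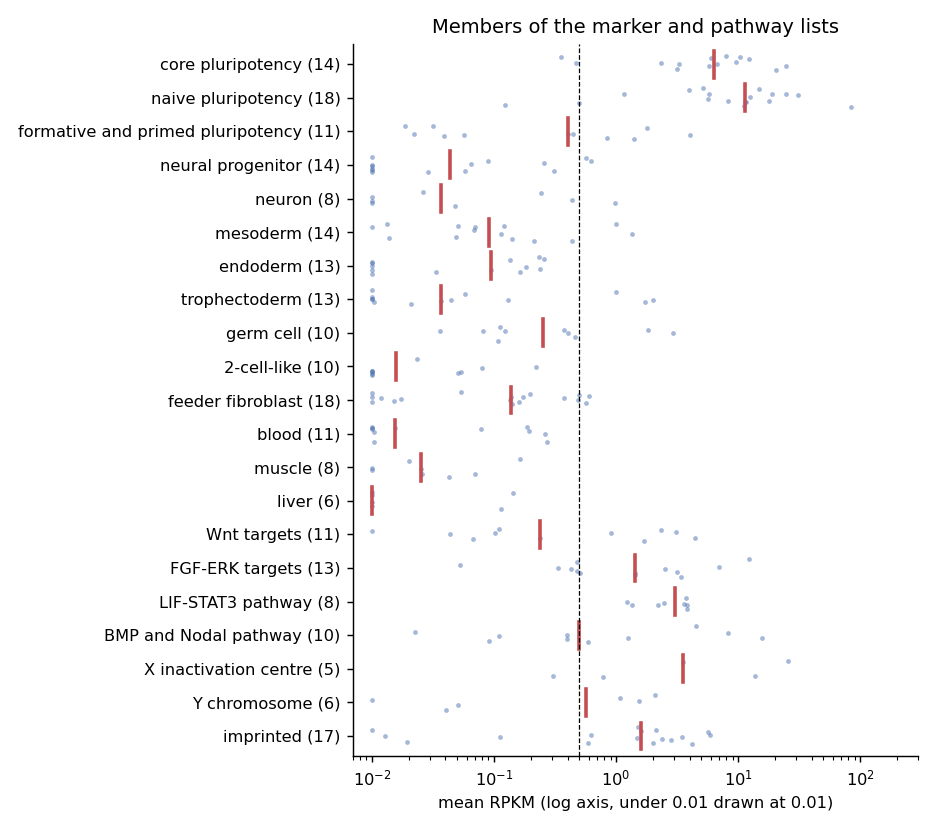
Mean RPKM of each gene of 21 marker and pathway lists (points, log axis, values under 0.01 drawn at 0.01), with the median of each list as a red bar and the limit of 0.5 RPKM as a dashed line. The core and naive pluripotency medians (6.34 and 11.3 RPKM) lie to the right of the limit, and those of the neural, mesoderm, endoderm, trophectoderm, blood, muscle and liver lists lie to the left of 0.1 RPKM.

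Genes that report on the signals given to the cells were read in the same way. For scale, 45.8% of all listed protein-coding genes were over the limit. All 8 genes of the LIF-STAT3 pathway were transcribed, among them the receptor subunits Lifr (3.63 and 3.98 RPKM) and Il6st (3.81 and 3.87 RPKM), the factor Stat3 (2.46 in both libraries) and its feedback inhibitor Socs3 (1.87 and 2.57 RPKM). Levels within this list ran only from 1.23 to 3.84 RPKM. Of the FGF-ERK targets, which lie downstream of the kinase that PD0325901 blocks, 8 of 13 (61.5%) were transcribed. The ETS factor gene Etv5 had 12.6 and 11.9 RPKM and the feedback inhibitor gene Spry2 7.07 and 6.86 RPKM. In contrast, the immediate early gene Egr1 had 0 and 2 reads over a counted length of 680 bases. Fos, with 0.294 and 0.726 RPKM, was over the limit in replicate 2 and on the mean. The members of this list therefore spread over more than the range of the LIF list. Of the Wnt targets, the pathway that CHIR99021 activates, 5 of 11 passed (45.5%), about the share of all listed protein-coding genes. Ccnd1 (cyclin D1) had 4.36 and 4.43 RPKM and Znrf3, a receptor-removing ubiquitin ligase, 3.03 and 3.15 RPKM. Axin2, a feedback component, had 0.951 and 0.852 RPKM. Sp5, Dkk1 and Lgr5 of the same list had at most 0.118 RPKM in either library. In the BMP and Nodal list 5 of 10 passed (50%), also near that share. The list was led by the inhibitory Smad7 (15.4 and 15.9 RPKM) and by Nodal itself (8.88 and 7.75 RPKM), followed by the BMP target Id3 (3.57 and 5.41 RPKM). Id1, another BMP target, had 1 and 0 reads over a counted length of only 228 bases. No untreated culture was part of these libraries, so the levels are given without reference to the inhibitors' effect.

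Promoter sequences were taken from RefSeq (GRCm38.p6) for 16545 of the 20624 protein-coding genes of the table (80.2%), and for 7685 of the 9438 transcribed ones (81.4%). In the 250 bases before the start, the median GC content was 60.0% for transcribed genes and 51.2% for the others, and the ratio of observed to expected CpG was 0.767 and 0.289. Transcribed genes had the motif TATAAA on either strand in 6.10% of promoters, the others in 17.5% and all promoters in 12.2%. The GC box GGGCGG stood in 61.0% of promoters of transcribed genes, in 30.1% of the others and in 44.5% of all, and the ETS core CCGGAAG in 16.4%, 3.48% and 9.49%. The CCAAT box (CCAAT) was close to even, with 38.1%, 35.3% and 36.6%. The E-box CACGTG stood in 9.15%, 4.95% and 6.90%, the cyclic AMP response element TGACGTCA in 3.18%, 1.17% and 2.10%, and the octamer ATGCAAAT in 1.35%, 1.87% and 1.63%. Among transcribed genes the CpG ratio was higher at higher levels, from 0.720 at 0.5 to 2 RPKM to 0.806 at 2 to 10 RPKM and 0.862 above 10 RPKM. Promoters of cytosolic ribosomal protein genes held the ETS core in 27.1% of 70 cases, those of replication-dependent histone genes held CCAAT in 82.0% of 61 cases, and those of olfactory receptor genes had a median GC content of 34.0% with a GC box in 0.639% of 939 cases. These are counts of letters in a window and not of bound factors.

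The 150 bases upstream of 4 pluripotency genes and of the highest translation factor gene are shown 5′ to 3′ because these genes differ in this respect although all were transcribed, with matches to any of the 7 motifs on either strand in capitals. The matches were to GGGCGG or CCAAT and did not overlap. The Zfp42 stretch is chr8:43307010-43307159 (minus strand), that of Nanog chr6:122707339-122707488 (plus strand), that of Pou5f1 chr17:35505882-35506031 (plus strand), that of Sox2 chr3:34649845-34649994 (plus strand) and that of Eif4a2 chr16:23107318-23107467 (plus strand).
Zfp42: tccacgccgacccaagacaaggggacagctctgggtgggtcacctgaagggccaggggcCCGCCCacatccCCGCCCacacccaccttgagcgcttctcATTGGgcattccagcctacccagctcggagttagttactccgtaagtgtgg
Nanog: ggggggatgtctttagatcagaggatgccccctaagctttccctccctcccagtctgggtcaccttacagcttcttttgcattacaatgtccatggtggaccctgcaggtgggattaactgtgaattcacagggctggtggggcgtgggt
Pou5f1: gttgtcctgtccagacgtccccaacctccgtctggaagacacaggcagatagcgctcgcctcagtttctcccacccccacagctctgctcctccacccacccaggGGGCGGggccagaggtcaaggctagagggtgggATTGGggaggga
Sox2: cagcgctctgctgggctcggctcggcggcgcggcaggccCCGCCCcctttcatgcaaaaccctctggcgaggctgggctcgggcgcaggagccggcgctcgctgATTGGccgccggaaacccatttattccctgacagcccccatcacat
Eif4a2: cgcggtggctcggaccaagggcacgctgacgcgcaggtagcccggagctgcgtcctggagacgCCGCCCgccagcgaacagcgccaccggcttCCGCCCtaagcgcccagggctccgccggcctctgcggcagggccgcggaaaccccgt
The Nanog stretch held none of the motifs searched, while the Zfp42 stretch held GC boxes that begin at −91 and −79 and a CCAAT box at −51, all on the strand opposite to the gene. Over the 250 bases before the start, the CpG ratio was 0.182 for Nanog and 0.423 for Zfp42 but 0.833 for Sox2 and 0.980 for Eif4a2, so that the pluripotency genes lay on both sides of the median of transcribed genes.

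The 50 families and functional groups of genes were ranked by the median level of all their listed members, transcribed or not. Small nucleolar RNAs (snoRNAs) and the genes named for hosting them headed the order at 18.3 and 18.5 RPKM, followed by the cytosolic ribosomal proteins at 17.1 RPKM (17.2 and 16.9 in the 2 libraries), of which 91 of 92 were transcribed and 70 had over 10 RPKM. The exception was Rpl3l, a ribosomal protein of muscle, with 12 and 11 reads. The SR splicing factors (12.2 RPKM, 10 of 11 transcribed), the hnRNP proteins that coat nascent RNA (10.5 RPKM, 20 of 20) and the chaperonin CCT that folds actin and tubulin (7.40 RPKM, 8 of 9) came next. Replication licensing factors, which load and fire the replicative helicase, stood at 5.14 RPKM with 22 of 22 transcribed, from Gins2 (1.56 RPKM) to Mcm7 (16.9 RPKM).

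Groups of the same basic machinery differed in level although nearly all of their members were transcribed. Aminoacyl-tRNA synthetases (35 of 35) had a median of 2.92 RPKM, proteasome subunits (36 of 39) 2.97 RPKM, RNA polymerase II subunits (13 of 13) 2.28 RPKM, Mediator subunits (32 of 32) 2.07 RPKM, mitochondrial ribosomal proteins (74 of 78) 2.19 RPKM and complex I subunits (45 of 47) 1.89 RPKM. The mitochondrial ribosomal proteins were thus at about the level of Mediator, far below their cytosolic counterparts. Translation factors had a median of 3.50 RPKM but included 4 of the 20 highest protein-coding genes, Eif4a2 (63.0 and 63.6 RPKM), Eif2s2 (59.3 and 55.5 RPKM), Eef1a1 (56.2 and 52.6 RPKM) and Eif4a1 (35.0 and 34.5 RPKM). The glycolytic enzymes stood at 1.88 RPKM, with Gapdh the highest at 14.9 and 14.6 RPKM.

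Transcription factor families differed in how many of their members were transcribed. Of the Klf factors 13 of 17 were transcribed, and Klf9 (18.0 and 16.8 RPKM) and Klf3 (13.2 and 12.3 RPKM) reached the range of Klf2, Klf4 and Klf5. Of the Sox factors 4 of 19 were transcribed, Sox2 (12.4 RPKM on average), Sox15 (1.96 and 2.90 RPKM), Sox13 (1.62 and 1.54 RPKM) and Sox21 (1.14 RPKM). The T-box family had 3 of 16, with Tbx3 at 24.5 RPKM, Tbx15 at 2.16 RPKM and Tbx6 at 1.36 RPKM. Each of these families thus had its highest member among the pluripotency genes. Of the Hox factors, which set position along the body axis, 7 of 39 were transcribed, with Hoxc12 (2.84 and 2.91 RPKM) and Hoxc13 (2.88 and 2.41 RPKM) apart from the other 5, which had 0.51 to 0.93 RPKM. The Pax factors had 0 of 9, with Pax2 the highest at 0.0785 RPKM. The family of 389 Zfp zinc finger genes had 288 transcribed members with a median of 1.66 RPKM, and Zfp42 was its highest.

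The lowest families were those of sensory, barrier and defence genes. Of 1127 olfactory receptor genes 10 (0.887%) were transcribed and 963 had no read in either library, and of 330 vomeronasal receptor genes 1 was transcribed, Vmn1r53 (1.38 and 1.53 RPKM). The olfactory receptor genes Olfr836 (6.09 and 7.35 RPKM, 139 and 196 reads) and Olfr986 (5.19 and 4.83 RPKM, 126 and 137 reads) stood apart from the other members, and their values were close in the 2 libraries. Keratins had 1 of 55, Krt10 (0.886 and 0.917 RPKM), and defensins 0 of 66. Of the collagens 3 of 44 passed, and the highest of them, Col10a1 (1.22 and 1.48 RPKM), lies inside Nt5dc1 on the opposite strand, which had 1.02 RPKM. The potassium channel gene Kcnj13 (4.80 and 6.14 RPKM) likewise lies inside Gigyf2 on the opposite strand at 4.22 RPKM. Whether strand was used in the counting is not stated, so the reads of such pairs cannot be told apart. In all 977 transcribed genes (9.05%) lay inside another gene, 314 of them on the opposite strand.

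**Figure D2:**
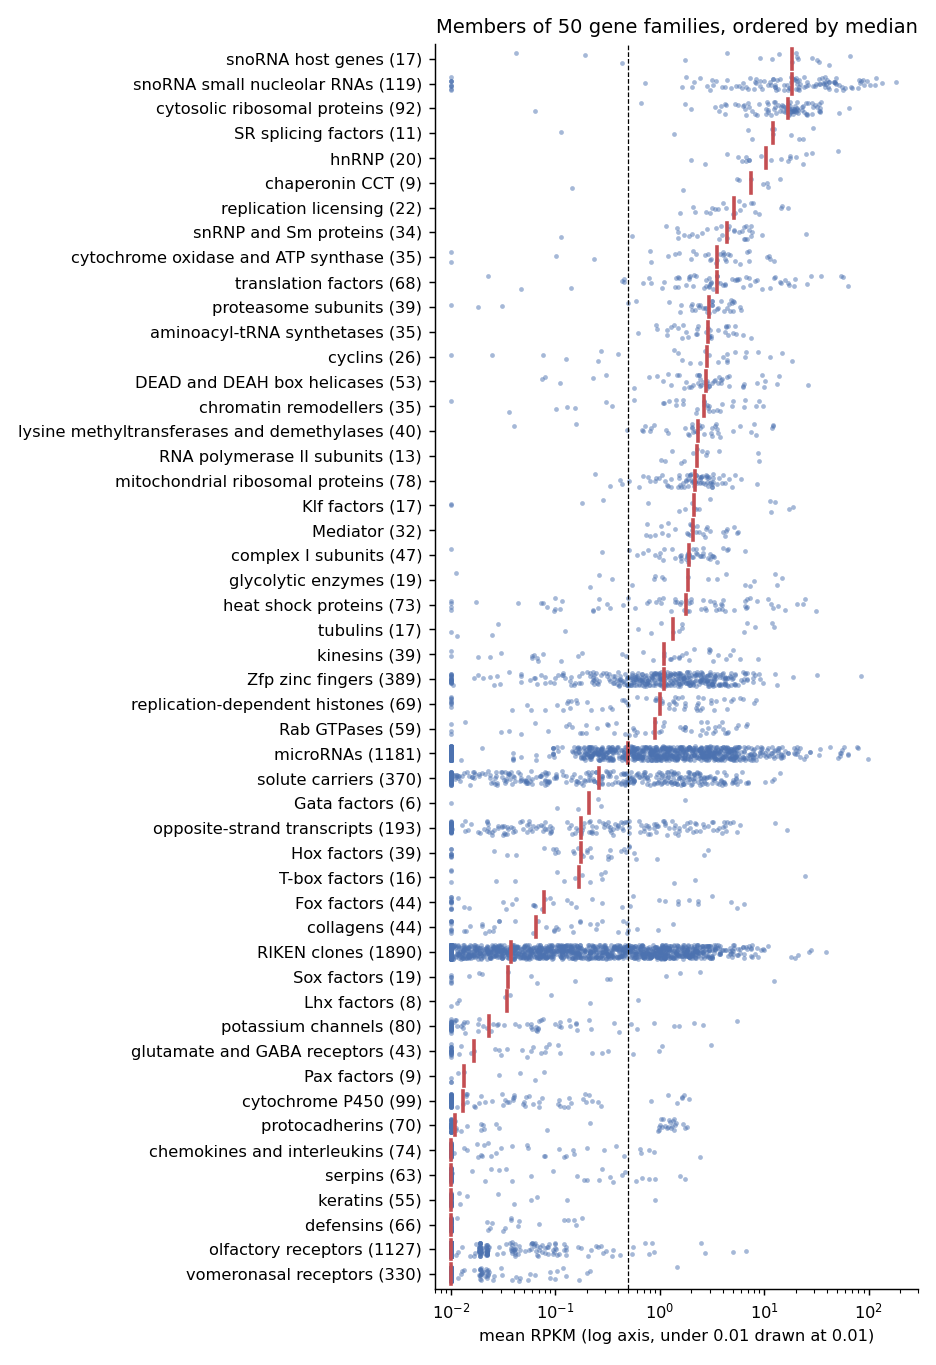
Mean RPKM of the members of 50 gene families (points, log axis, values under 0.01 drawn at 0.01), with the number listed in brackets, the median as a red bar and the limit of 0.5 RPKM as a dashed line. The cytosolic ribosomal proteins form a narrow group around 17.1 RPKM, and the keratins, defensins, olfactory and vomeronasal receptors have medians of 0.

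By RNA class, 9438 of the transcribed genes (87.4%) were protein-coding, 591 microRNA, 515 long noncoding RNA (lncRNA), 119 snoRNA or scaRNA, 87 pseudogene and 8 other small RNA genes, and 38 could not be matched to RefSeq. The share of listed genes that was transcribed differed widely, from 20.6% of 2497 lncRNA genes and 45.8% of 20624 protein-coding genes to 49.9% of 1184 microRNA genes and 92.2% of 129 snoRNA and scaRNA genes. Protein-coding genes took 97.6% and 97.8% of the reads of the matched genes but 73.2% and 73.3% of the summed RPKM, and microRNA genes took 0.0248% and 0.0231% of the reads but 7.69% and 7.44% of the summed RPKM. The contrast came with gene length, since a transcribed protein-coding gene had a median span of 22309 bases and 1042 reads and a transcribed microRNA gene 79 bases and 4.5 reads. Of the 591 transcribed microRNA genes 515 rested on fewer than 20 reads. The highest value of the table was that of Rn45s, the ribosomal RNA precursor made by RNA polymerase I, at 1530 and 1637 RPKM, in libraries from which ribosomal RNA had been depleted, and its length was not in the annotation used here. Malat1, a nuclear lncRNA without introns, had 125 and 124 RPKM, and Gas5, a snoRNA host, 67.6 and 65.1 RPKM.

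Rpl3 (73.2 and 56.9 RPKM), Npm1, the nucleolar histone chaperone nucleophosmin (63.9 and 62.6 RPKM), Rps12 (55.2 and 49.1 RPKM), Hnrnpa2b1 (50.1 and 51.8 RPKM), Rabggtb, a subunit of Rab geranylgeranyl transferase (45.8 and 43.7 RPKM), and Mat2a, the S-adenosylmethionine synthetase of dividing cells (41.0 and 40.1 RPKM), made up the 10 highest protein-coding genes together with Zfp42, Eif4a2, Eif2s2 and Eef1a1. The same 10 genes led in both libraries. The genes ranked 11 to 20 were Taf1d, Rbm14, Rack1, Eif4a1, Rpl13a, Rps9, Rpl4, Rps15a, Rpl30 and Gabarapl2, with 38.6 down to 32.9 RPKM. Zfp42 and Mat2a apart, these lists held ribosomal proteins, translation factors and RNA-binding proteins for the most part. Rpl3 was the one of the 20 whose libraries were farthest apart, with a log2 ratio of replicate 2 to replicate 1 of −0.36.

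Many of the highest genes carried snoRNAs in their introns. snoRNAs guide the chemical modification of ribosomal RNA, and in mammals most are cut out of introns of host genes rather than made from promoters of their own. Hosts made up 7 of the 20 highest protein-coding genes and 22 of the highest 100, against 65 of all 9438 (0.689%). Their median level was 13.4 RPKM against 1.90 RPKM for all transcribed protein-coding genes. Reads over the snoRNAs came to a median of 1.71% of the host's reads, with a maximum of 27.9% in Rpl13a, so that for most hosts the snoRNA reads were a small part of the value. Among the 90 transcribed members of the ribosomal protein family that RefSeq lists as protein-coding, which leaves out Rps4l, 25 hosts had a median of 19.1 RPKM and the other 65 genes 16.6 RPKM.

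The snoRNA genes themselves followed their hosts. For 114 snoRNA and scaRNA genes in an intron on the strand of a host with over 1 RPKM, the median ratio of the small RNA gene to the host was 1.42 (1.43 in each library alone), with quartiles of 0.978 and 1.90. Snord100 in Rps12 had 212 and 151 RPKM over a host of 52.1 RPKM, Snord47 in Gas5 had 136 and 130 RPKM over 66.4 RPKM, and Snord2 in Eif4a2 had 127 and 103 RPKM over 63.3 RPKM. These snoRNAs were above their host in both libraries. Where the host was under the limit, 1 of 6 snoRNA genes was over it. Snora35, in an intron of the serotonin receptor gene Htr2c (host 0.000753 RPKM), had no read.

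MicroRNA genes in introns showed the same pattern at lower precision. With a host over 1 RPKM on the same strand, 252 of 277 microRNA genes were over the limit and their median ratio to the host was 1.12, from a median of 5.5 reads. With a host at or under the limit, 29 of 200 were over it. On the opposite strand of a host the figures were 32 of 33, with a ratio of 1.56, and 4 of 29. With a host over 1 RPKM, microRNA genes in introns thus had values of the same order as the host at the median, on either strand. Their reads and those of the host transcript cannot be told apart. An exception with many reads was Mir1894 in Ppp1r10, with 62.0 and 65.4 RPKM (120 and 148 reads) over a host of 9.23 RPKM. Outside other genes, 109 of 348 microRNA genes were over the limit. The largest set in 1 host was that of Sfmbt2, whose introns hold 72 microRNA genes, of which 23 were over the limit, with a median of 0.0947 RPKM and 0.5 reads while the host had 0.706 and 0.685 RPKM.

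**Figure D3:**
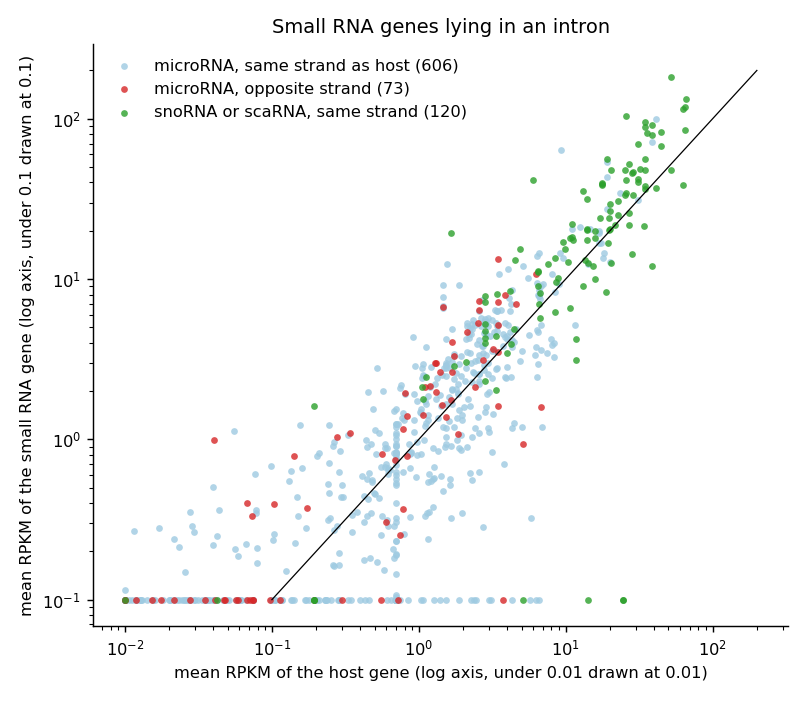
Mean RPKM of microRNA genes (blue on the strand of the host, red on the opposite strand) and snoRNA or scaRNA genes (green) against the mean RPKM of the gene in whose intron they lie (both axes log, values under 0.1 or 0.01 drawn at these values), with the line of equality. For hosts over 1 RPKM the points scatter along the line. There, snoRNA genes lie at the upper end with a median ratio of 1.42 and microRNA genes below them with 1.12 on the same strand. With hosts at or under the limit the median microRNA gene had 0 RPKM on either strand. Such values are drawn at the lower edge and not along the line.

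The microRNA gene with the highest value was Mir1949 in the snoRNA host Snhg4, with 109 and 89.5 RPKM over a host of 41.4 RPKM. The 8 sets of microRNA genes described here have known roles in stem cells and in differentiation and were chosen after their values were seen. Among these sets the miR-290 to miR-295 cluster was the highest. All 9 of its genes were transcribed, at 25.2 to 78.7 RPKM on 1005 and 977 summed reads. Several microRNAs of this cluster and of the miR-302 cluster, those printed next, share AAGUGC at bases 2 to 7, and both clusters are known for sustaining the mESC cell cycle, the first in naive and the second in primed cells. The cluster lies on chromosome 7, with Mir290a and Mir290b just before the lncRNA gene D7Ertd143e (49.1 and 44.4 RPKM) and the other members inside it, and with miR-291a-3p at chr7:3218968-3218989 on the plus strand. Mature sequences from RefSeq (GRCm38.p6) matched 528 of the 591 transcribed microRNA genes, and those of the clusters described here are printed with the seed, bases 2 to 8, in capitals.
mmu-miR-290a-3p: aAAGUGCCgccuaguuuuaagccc
mmu-miR-291a-3p: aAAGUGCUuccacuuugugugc
mmu-miR-291b-3p: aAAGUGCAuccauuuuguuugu
mmu-miR-294-3p: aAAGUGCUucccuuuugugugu
mmu-miR-295-3p: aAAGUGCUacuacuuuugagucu
mmu-miR-302b-3p: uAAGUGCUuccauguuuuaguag
mmu-miR-302d-3p: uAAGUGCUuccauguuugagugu
The seed AAGUGCU was shared by 5 transcribed genes, the 3 of the miR-290 cluster with 52.9 to 56.1 RPKM and Mir302b and Mir302d with 3.51 and 7.15 RPKM, so that the same seed was encoded by both clusters at levels that did not overlap. Mir291a had 66.3 and 45.9 RPKM, Mir294 had 61.3 and 48.2 RPKM and Mir295 had 67.3 and 38.4 RPKM. Replicate 1 was higher for each of these 3 genes. Mir291b, with the seed AAGUGCA, had 75.7 and 81.6 RPKM, and Mir290a, with AAGUGCC, had 65.0 and 51.3 RPKM. Mir290b, which lies opposite Mir290a on the other strand, had 65.7 and 61.1 RPKM, and as strand use is not stated the values of such pairs may rest on the same reads.

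All 5 genes of the miR-302 and miR-367 cluster were over the limit at 1.62 to 13.4 RPKM on 60 and 53 reads in sum. They lie in an intron of Larp7, the stabilizing protein of 7SK RNA, on the opposite strand, and Larp7 itself had 3.53 and 3.39 RPKM, so that the cluster's values cannot be told apart from those of its host. The miR-17 to miR-92 cluster, which is known to promote proliferation, had 6 of 6 genes over the limit at 4.77 to 14.8 RPKM, and its relative miR-106b to miR-25 in Mcm7 had 3 of 3 at 16.8 to 19.9 RPKM beside 16.9 RPKM for Mcm7. The copy on the X chromosome, miR-106a to miR-363, was lower, with 6 of 6 at 0.675 to 1.47 RPKM on 14 reads in each library. The seed AAAGUGC, which is the miR-290 seed moved by a base, belonged to 6 transcribed genes, of which the 4 outside the X chromosome are shown and Mir106a and Mir20b are not, since they rested on at most 3 reads in either library.
mmu-miR-17-5p: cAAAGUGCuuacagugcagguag
mmu-miR-20a-5p: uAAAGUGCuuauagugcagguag
mmu-miR-106b-5p: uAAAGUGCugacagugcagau
mmu-miR-93-5p: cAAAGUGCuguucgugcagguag
A further seed, AUUGCAC, came from 6 transcribed genes, which belonged to the clusters on chromosomes 14, 5, 3 and X and to Mir32.
mmu-miR-25-3p: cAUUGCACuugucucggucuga
mmu-miR-92a-3p: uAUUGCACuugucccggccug
mmu-miR-367-3p: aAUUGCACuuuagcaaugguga
Mir25 had 18.4 and 20.0 RPKM, Mir92-1 12.6 and 11.6 RPKM and Mir367 13.9 and 12.9 RPKM, so that Mir25 was the highest of the 3 in both libraries.

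The let-7 microRNAs are the usual counterpart of the miR-290 seed family, since they accumulate as mESC differentiate. Their primary transcript from chromosome 13 was among the higher ones, with let-7a-1, let-7f-1 and let-7d at 15.1 to 22.0 RPKM on 134 and 146 reads in sum, and the other 8 let-7 genes were at a median of 0.508 RPKM with 4 over the limit. These values are of the nascent transcript, and Bru-seq of RNA without size selection for microRNAs does not measure the mature forms, whose release from let-7 precursors is blocked by the Lin28 proteins. The genes of both Lin28 proteins were under the limit, as given with the core pluripotency genes. The seed GAGGUAG is in capitals.
mmu-let-7a-5p: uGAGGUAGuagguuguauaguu
mmu-let-7f-5p: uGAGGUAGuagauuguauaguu
mmu-let-7d-5p: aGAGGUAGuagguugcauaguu
Of 6 genes for the neural microRNAs miR-9 and miR-124, 1 was over the limit, on 2 reads in each library for the whole set.

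Ranked by reads instead of by reads per length, other genes came to the front. Only genes whose values gave whole reads were ranked. Of these, Cobl, an actin nucleator gene spanning 228285 bases, took the most, with 105244 and 133721 reads at 19.8 and 21.5 RPKM. Kat6b, a histone acetyltransferase gene, followed with 83524 and 104389 reads (21.1 and 22.6 RPKM), then Exoc4, an exocyst subunit gene of 724852 bases, with 63813 and 83817 reads at only 3.71 and 4.17 RPKM. Jarid2, a PRC2 cofactor of mESC, had 58443 and 76922 reads (13.2 and 14.9 RPKM). Listed genes over 100 kb held 38.3% and 39.8% of the reads of matched genes, and 1000 of them were transcribed (9.26% of the transcribed genes). To hold 50% of the reads of matched genes, 1143 genes in replicate 1 and 1075 in replicate 2 were enough. The longest transcribed gene was Sgcz, a sarcoglycan gene of 1138955 bases, with 0.796 and 0.893 RPKM, and Ctnnd2, Iqschfp, Cdkal1, Magi1, Lpp and Diaph2 were other genes over 500 kb with means of 0.626 to 1.39 RPKM, while Ptprg (2.22 RPKM), Tenm4 (2.65 RPKM) and Exoc4 (3.94 RPKM), also among the 10 longest, had higher ones. Across 8623 genes with at least 100 reads, level and span were weakly related (Spearman rho −0.160, across genes, which are not independent replicates).

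Some pseudogene values were those of other genes. Of the 87 pseudogenes over the limit, 26 did not give whole reads on their own length, among them the 5 highest. In 11 cases both values of a gene were exactly those of another gene, as with Gm12191 and Rpl30 (34.5 and 32.6 RPKM), Gm15772 and Rpl26 (18.4 and 17.4 RPKM), Gm5424 and the argininosuccinate synthetase gene Ass1 (7.18 and 5.77 RPKM), and the protein-coding copies Eif3j2 and Eif3j1 (3.04 and 2.93 RPKM). The values fitted whole reads on the length of the parent gene and not on that of the copy. Levels of these copies are therefore uncertain, and without the 11 the number of transcribed genes was 10785.

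The 2 libraries agreed closely for genes with many reads. Across the transcribed genes Pearson's r of log2(RPKM + 0.1) was 0.948 and Spearman's rho 0.962, and 10305 genes (95.5%, Wilson 95% interval 95.0% to 95.8%, for counting over genes only) were within 1.5-fold. For the protein-coding genes among them r was 0.985 and 98.7% were within 1.5-fold, and with at least 1000 reads all 4743 genes were. The SD of the log2 ratio was 1.07 for genes with up to 10 reads, where counting error alone would give 1.24. This group kept the 495 of 542 genes that had reads in both libraries. The SD fell to 0.124 for genes with over 5000 reads, where counting error would give 0.0226. The spread was under the counting value only for up to 10 reads. From 10 to 20 reads on it was above that value (0.618 against 0.552), and for many reads, more reads no longer reduced it. MicroRNA genes had an SD of 1.45, lncRNA genes 0.350 and protein-coding genes 0.192. Family ranks were stable, with a Spearman rho of 0.997 over 50 families, 26 at the same rank and the largest shift 4 places, for the RNA polymerase II subunits.

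**Figure D4:**
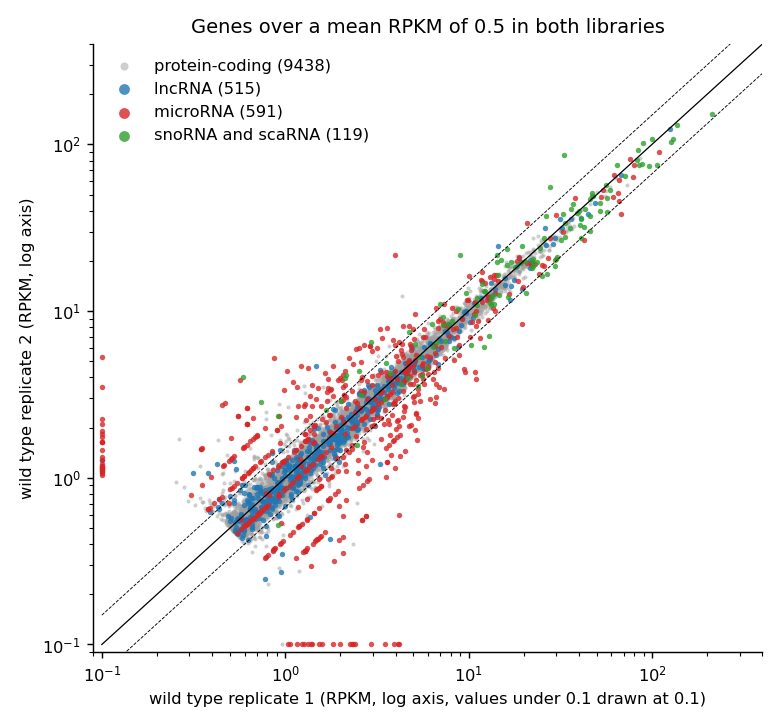
RPKM of the transcribed genes in replicate 1 and replicate 2 (both axes log, values under 0.1 drawn at 0.1), coloured by RNA class, with the line of equality and dashed lines at 1.5-fold. Protein-coding genes follow the line with an SD of 0.192 in the log2 ratio, and microRNA genes, most of them on fewer than 20 reads, scatter widely with an SD of 1.45.

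The ratio between the libraries was not the same for all genes. Over the 8623 genes with at least 100 reads the median log2 ratio of replicate 2 to replicate 1 was −0.12 for genes of 10 to 20 kb, of which 17.4% were higher in replicate 2, and 0.09 for the 25 genes over 500 kb, of which 88% were. By GC content of the span it went from 0.10 in the lowest of 10 equal groups of genes (median GC 38.3%) to −0.14 in the ninth (50.9%), and was −0.09 in the last. Genes under 5 kb, at −0.04, likewise departed from the order by length. Span and GC content were related to one another (Spearman rho −0.403), and the ratio was related to GC content (−0.425) more than to span (0.281). The 3 values are across genes of the same 2 libraries. Which property moved with the ratio on its own was not tested, and the shift is small beside the range of levels described.

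**Figure D5:**
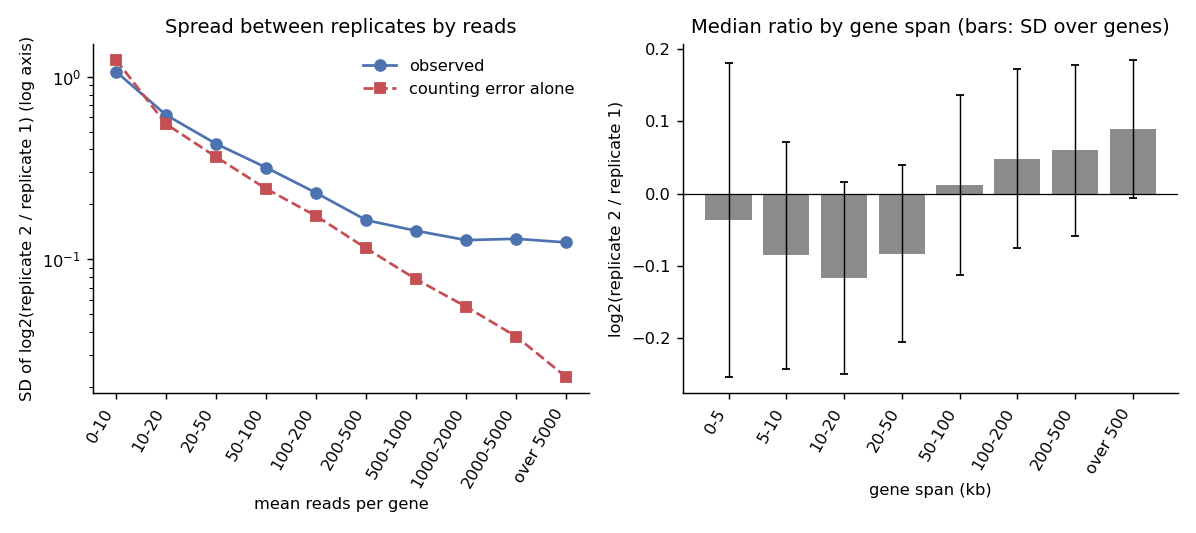
Left, SD of log2(replicate 2 / replicate 1) by mean reads per gene (log axis) as observed and as counting error alone would give; right, median log2 ratio by gene span for genes with at least 100 reads, with bars for the SD over genes. The observed SD levels off near 0.124 while the counting SD goes on down to 0.0226, and the median ratio passes from −0.12 at 10 to 20 kb to 0.09 above 500 kb.

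Of the genes with at least 100 reads on average, Hist1h2bg and Rmrp differed most between the libraries. Hist1h2bg, a replication-dependent histone gene of 464 bases, had 4.33 RPKM (48 reads) in replicate 1 and 12.3 RPKM (160 reads) in replicate 2, and Rmrp, the RNA of the RNase MRP complex, of 275 bases, had 23.6 RPKM (155 reads) and 10.3 RPKM (79 reads). These 2 genes stood apart from the rest. Transcribed histone genes of this kind had a median log2 ratio of 0.38, higher in replicate 2. Higher in replicate 2 were also Dnajb9, Coch, Smim15, Lpar6, Spout1, Foxd3, Fam43a, Tubb5 and Rps21, with log2 ratios of replicate 2 to replicate 1 of 0.43 to 0.59. Higher in replicate 1 were Snord17, Klhl35, Fxyd4, Atpif1, BC005624, Prrt3, Wdr73, Mif4gd and Zfp28, with log2 ratios of −0.55 to −0.67. Of the genes named above, Foxd3, a forkhead factor of pluripotent cells, is the one that belongs to the core list, with 108 and 184 reads.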

How the data were processed

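The values are RPKM that the authors deposited per library, without pooling replicates. Per the study's methods, the authors aligned read pairs to mm10 by bowtie2, filtered them for unique alignment and split them by strand (samtools), assigned them to RefSeq genes taken whole (featureCounts) and normalized the result in edgeR. The submitters' processing notes give bowtie2 2.3.4.3 and featureCounts 1.6.1. The RefSeq release and the use of strand in counting are not given in the sources used here. The methods and the labels differ in the amount of RNA used, which was not resolved.

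The columns of WT replicates 1 and 2 were taken by their titles, and no other column was used. Genes were matched to RefSeq GRCm38.p6 by symbol (24418) or older symbol (407). Left without a match were 26 names that a spreadsheet had turned into dates, 2 that lay in several places and 131 others. Lengths and library sizes (23896847 and 27923484 reads) were worked out from steps between low values, with a tolerance of 0.02 reads. Tested on simulated data with 24825 genes, this recovered the sizes of 2 of 2 libraries. No test was run, intervals cover counting error only, correlations use log2(RPKM + 0.1), and SD is over 2 libraries. Motifs were searched on both strands before a gene's first listed start.

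The members and lists were chosen with earlier results of these data known. Named genes were the 20 highest protein-coding and 10 highest other genes with at least 100 reads, the 5 highest of each RNA class, the members of the lists, the highest and lowest of each family, the 10 with the largest ratio in each direction, the 5 nearest to the limit on each side and the 10 longest. A few genes that this rule names are not reported here. Other family members, the genes with most reads, the microRNA clusters and the copies with shared values were chosen after their values were seen. Python 3.11.15, numpy 2.4.6, pandas 2.3.3 and scipy 1.17.1 were used.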

Additional observations from a re-analysis of the deposited data

How the results depend on the processing

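No paired analysis was possible because both libraries belong to 1 group. The number of transcribed genes was 8400 with a mean over 1 RPKM, 14547 over 0.1 RPKM, 9563 with at least 20 reads and, in 2 alternatives chosen after seeing the data, 9819 without genes inside another gene and 10785 without copies that share another gene's values. The rank of the cytosolic ribosomal proteins was 3 in every setting tried. The share of genes within 1.5-fold (95.5%) was 97.4% with a pseudocount of 1, 95.0% with 0.01, 94.4% for all genes over 0, 99.1% with at least 20 reads and 99.9% with at least 100. Pearson's r (0.948) was 0.974, 0.902, 0.980, 0.989 and 0.992 in the same settings. The protein-coding share (87.4%) was 87.9% over 1 RPKM, 82.5% with no limit, 93.6% without genes under 200 bases and 87.4% to 87.6% in single libraries. The pluripotency minus lineage difference (5.69) was 3.10 with a pseudocount of 1, 6.89 with 0.01, 3.20 for members over the limit, 5.35 without the naive list and 5.65 in either library alone, so its size is set by the pseudocount, since most lineage genes are near 0. The ratio of nested microRNA genes to same-strand hosts (1.12) was 1.48 with at least 20 reads and 0.981 to 1.14 in single libraries, on both sides of 1, and on the opposite strand (1.56) it was 2.80 with at least 20 reads, which left 2 genes. The snoRNA ratio (1.42) was 1.53 with at least 20 reads, 1.40 with hosts over 2 RPKM and 1.43 in either library alone. The promoter GC difference (8.80 points) was 7.60 at a limit of 1 RPKM and 11 over the last 100 bases. The files give no read counts, and depth limits the microRNA genes most.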

Other observations

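Imprinted genes, which are transcribed from only the maternal or only the paternal copy, were over the limit in 13 of 17 cases. The long noncoding transcript Kcnq1ot1 had 6.19 and 5.14 RPKM and lies opposite Kcnq1, whose level was 1.53 RPKM. Peg10, a gene derived from a retrotransposon, had 6.16 and 5.61 RPKM, and Plagl1, a zinc finger gene, 4.20 and 4.25 RPKM. Among the genes of the Dlk1 and Meg3 region on chromosome 12, the noncoding Meg3 (2.68 and 2.10 RPKM), Rian (2.77 and 2.86 RPKM) and Mirg (1.45 and 1.60 RPKM) were all transcribed. Of the protein-coding genes listed there, Rtl1 was over the limit with 1.99 RPKM in both libraries (227 and 266 reads), while Dlk1 had 4 and 2 reads. The 7 snoRNA genes within Rian had 2.31 to 7.79 RPKM, and 6 of the 7 microRNA genes in introns of Mirg were over the limit. H19 had no read over a counted length of 341 bases and Igf2 had 2 and 8 reads, so neither gene of that pair was over the limit.

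At the X inactivation centre, Xist had 26.3 and 25.1 RPKM and Tsix, which runs across it on the other strand, 13.9 and 13.6 RPKM. As the use of strand in the counting is not stated, the reads of Xist and Tsix cannot be told apart here. Rlim, the activator of Xist, had 3.50 RPKM in both libraries. Of 6 genes of the Y chromosome, Ddx3y (2.10 and 2.05 RPKM), Eif2s3y (1.61 and 1.48 RPKM) and Uty (0.988 and 1.16 RPKM) were over the limit, and Kdm5d, with 42 reads in each library, was not.

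By chromosome, the share of listed genes over the limit ran from 6% of 50 on Y and 29.3% of 1083 on X to 52.5% of 1188 on chromosome 8. The median of the transcribed genes was 1.22 RPKM on X and 1.70 to 2.39 RPKM on the autosomes, so the X chromosome was lowest by both measures apart from the share on Y.

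Of 69 replication-dependent histone genes, which are short, lack introns and are made in S phase, 40 were over the limit. Their median was 0.750 RPKM in replicate 1 and 1.09 RPKM in replicate 2. Their promoters differed from those of other genes in letters as well, with TATAAA in 47.5% of 61 cases against 12.2% of all promoters and the octamer ATGCAAAT in 21.3% against 1.63%.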
